A study of Mus musculus with 4 samples.

Results

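Thymocytes that carried the GFP-Foxp3 fusion protein were compared with GFP- CD25+ thymocytes of the same kind of mice, on 2 of the 4 arrays of the series. Both populations were CD4+ CD8- thymocytes of females aged 6 to 8 weeks, homozygous for the knock-in allele (Foxp3(gfp/gfp)), from 129/Sv stock taken 4 to 6 backcross generations into C57BL/6. The GFP+ cells are called Foxp3-fusion cells here, and the titles give no CD25 gate for them. The other arrays hold GFP- CD25- cells of Foxp3(gfp/gfp) females and GFP+ cells of Foxp3(gfpko/wt) females (2 backcross generations), called Foxp3-null cells after the allele's name. The written description of that sample repeats the one for Foxp3(gfp/gfp) mice, so its genotype rests on its title and strain entry. Cells were enriched on magnetic beads before flow sorting. Foxp3 in the homozygous mice was the fusion protein in every cell that makes it, and how many mice stand behind each array was not stated. Each population had 1 array, so no difference below has a replicate check, an error or a p-value, and the number of arrays limits the precision. The comparison covered the 34945 probe sets, of 45101, that list 1 gene symbol. They represent 18193 genes, of which 7627 lay above the floor of 4.49 log2 on at least 1 of the 2 arrays. The floor is the 90th percentile of probe sets for genes of unrelated tissues. Of 35 such genes 5 still read above it, so a value just above the floor is weak evidence of expression.

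Foxp3 is the transcription factor that defines regulatory T cells, which hold other T cells in check. In the thymus, CD4 thymocytes that receive a strong signal through the T cell receptor can switch on CD25, the alpha chain of the IL-2 receptor. IL-2 acts on such cells through the kinases JAK1 and JAK3 and the factor STAT5, and some of them then express Foxp3. GFP- CD25+ CD4+ CD8- cells may therefore share some receptor-driven and IL-2-related genes with regulatory T cells, but were sorted as lacking the GFP-Foxp3 fusion protein. The thymus is also known to hold older regulatory T cells that come back from the periphery, which the gates used here do not separate from newly made ones.

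The sort genes were read first. Foxp3 read 8.82, 2.88, 2.76 and 7.27 log2 in Foxp3-fusion, GFP- CD25+, GFP- CD25- and Foxp3-null cells, the order of arrays used for all sets of 4 values below. It was above the floor on both GFP+ arrays and under it on both GFP- arrays, as the gates are labelled. Il2ra, the CD25 gene, read 10.35, 7.85, 3.62 and 9.11 log2 and was 5.66-fold higher in Foxp3-fusion cells than in the cells sorted as CD25+. Its other probe set read 6.42, 5.27, 2.76 and 3.77 log2. Cd4 was 0.18 log2 higher in Foxp3-fusion cells (-0.20 with the median over its probe sets) and Cd8a was near the floor on all 4 arrays, between 4.42 and 4.78 log2. These genes chose the cells, so their levels are not findings.

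Among the defining genes of CD4 T cells, 6 of 7 present were above the floor on both arrays compared. The genes did not all point one way. Cd3d was 3.06-fold higher in Foxp3-fusion cells, whereas Cd3e was 2.02-fold lower and Thy1 2.98-fold lower. Zap70, the kinase bound to the receptor, was 2.42-fold lower on the probe set used, but 0.82 log2 higher with the median over its probe sets. In RNA of bulk populations, fewer cells of a type and less RNA per cell cannot be told apart. Most listed markers of other cell types were under the floor on both arrays. Genes above the floor in Foxp3-fusion and GFP- CD25+ cells numbered 0 and 1 of 8 for B cells, 1 and 2 of 15 for dendritic cells and macrophages, 2 and 2 of 11 for NK and NKT cells, and 1 and 3 of 5 for CD8 T cells. For thymic epithelium they were 2 and 2 of 9, and for gamma delta T cells and erythroid cells 0 and 0 of 3 and 5. Summed linear signals over these lists of other cell types differed most for dendritic cells and macrophages, at 160.5 and 233.1, a list in which H2-Aa was the gene 2-fold lower, at 5.16, 6.60, 6.68 and 6.49 log2. Pax5, Cd79a, Itgax, C1qa, Ncr1, Foxn1 and Hba-a1 were under the floor on all 4 arrays. Other genes of such cells, picked after their values were seen, were above it. Ighm, the immunoglobulin heavy chain gene of B cells, read 10.76, 8.94, 9.54 and 4.83 log2, and its brightest other probe set was 4.10 log2 higher in Foxp3-fusion cells. C1qb, a complement gene of macrophages, read 5.02, 6.64, 5.41 and 7.37 log2. The part of other cells in the results was not tested.

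In all, 892 of 7627 measured genes read 2-fold or more above their GFP- CD25+ level in Foxp3-fusion cells, a background of 11.7%, and 637 read 2-fold or more below it, a background of 8.35%. Of the higher genes, 129 were under the floor in GFP- CD25+ cells, so that their folds are lower bounds, written "at least". Among the lower genes, 50 were under the floor in Foxp3-fusion cells. The split depended on the scale. With quantile normalized values 58.3% of the genes 2-fold apart were higher in Foxp3-fusion cells, and with values as deposited 87.3% were, with 1670 higher (21.9%) and 244 lower (3.2%). The median over all measured genes was -0.11 log2 on the first scale and 0.24 log2 on the second, a shift of 0.34. Values below are on the quantile normalized scale unless stated. Each list's median is to be read against -0.11, or against 0.24 where given as deposited. Each list's counts of genes 2-fold up and down are to be read against 11.7% and 8.35%.

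**Figure D1:**
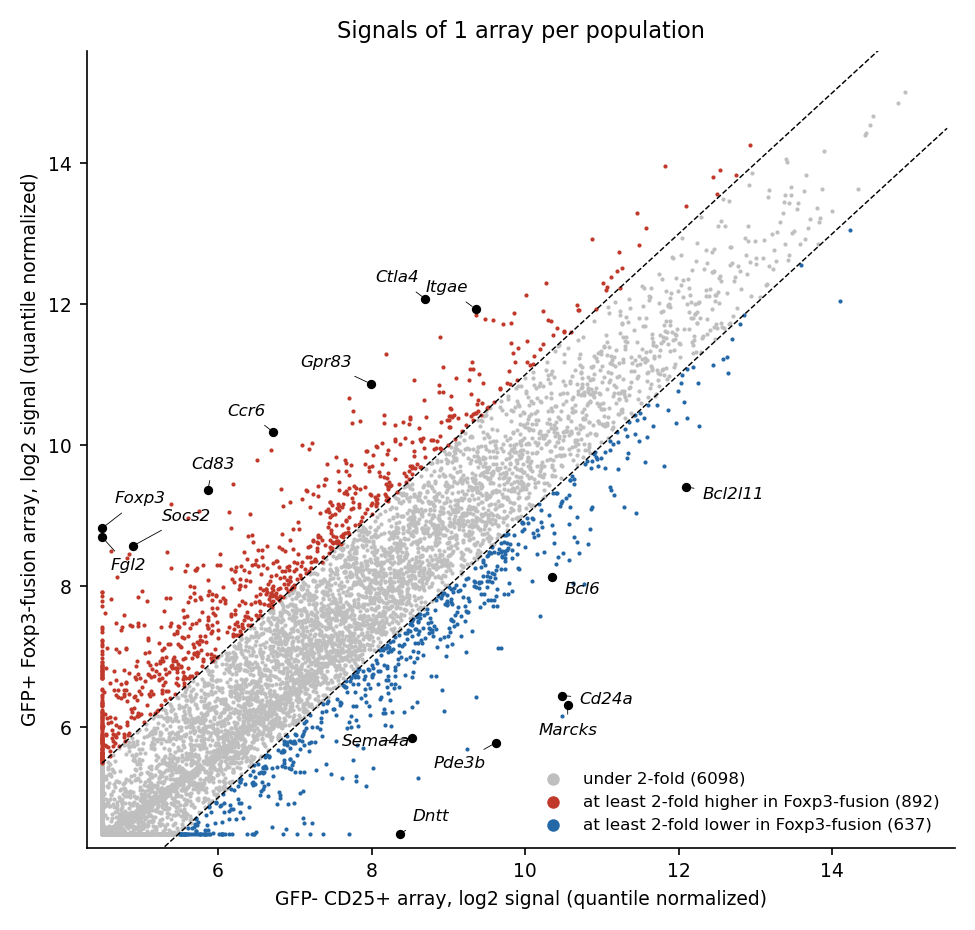
Log2 signal of each gene on the GFP- CD25+ array (x axis) and on the Foxp3-fusion array (y axis), 1 point per gene, quantile normalized, with values under the floor drawn at 4.49. Dashed lines mark 2-fold; 892 genes lie above them and 637 below, with Foxp3, Fgl2 and Ctla4 far above and Dntt, Cd24a and Pde3b far below.

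Control probe sets differed between the arrays. The BioB-3 hybridisation control read 7.20 log2 as deposited on the Foxp3-fusion array and 9.53 on the GFP- CD25+ array. The 3' actin control exceeded the 5' one by 5.02 log2 on the Foxp3-fusion array and 9.29 on the GFP- CD25+ array, and those for Gapdh 4.60 and 6.51. The kind of probe set also differed with direction. Probe sets with the suffix _x_at, which can match several transcripts, stood for 8.04% of measured genes, 1.91% of those 2-fold higher and 20.3% of those 2-fold lower. Without the suffixes _s_at, _x_at and _a_at, 869 genes were 2-fold or more up and 388 lower. The part of these differences in the results was not tested.

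Genes known from regulatory T cells were almost all higher in Foxp3-fusion than in GFP- CD25+ cells. Of 33 on the array, 29 were measured, 25 were 2-fold or more up and 0 were 2-fold or more down (background 11.7% and 8.35%). Of the 29, 6 were under the floor in GFP- CD25+ cells, so they could only count as higher. The median of the 29 was 1.69 log2, or 2.16 on the deposited scale. The list was chosen with earlier results of these arrays known and is no independent evidence of its direction. The other 4 on the array, Ccr8, Il10, Ebi3 and Gzmb, were under the floor in both populations. For 21 of the 29 genes the GFP- CD25+ level lay between the GFP- CD25- and the Foxp3-fusion level, against 16.1% of all measured genes. Among all genes 2-fold or more up that share was 26.1%, as the order rests partly on the arrays compared. GFP- CD25+ cells were thus intermediate for most of the 29 genes, counted at any margin. Izumo1r, for example, counted with 5.76 log2 in GFP- CD25+ and 5.70 in GFP- CD25- cells.

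Ctla4, an inhibitory receptor of the CD28 family, read 12.08, 8.70, 4.58 and 8.65 log2, a 10.4-fold difference. GFP- CD25+ and Foxp3-null cells were close to each other for Ctla4, with Foxp3-fusion cells above both. Rgs1, which shortens signals from G protein-coupled receptors, read 11.54, 8.89, 5.12 and 9.43 log2, a 6.25-fold difference, with both of those populations again between the extremes. Itgae, the CD103 chain that binds E-cadherin, read 11.94, 9.36, 6.77 and 8.18 log2, a 5.98-fold difference, and its other probe set gave 3.96 log2. Cd83, an immunoglobulin-family surface protein, was 11.3-fold higher, at 9.37, 5.87, 2.81 and 8.58 log2. On the arrays of the comparison, Ccr6, the receptor for the chemokine CCL20, was 11.1-fold higher, and over all 4 it read 10.19, 6.72, 3.83 and 9.39 log2. For Cd83 and Ccr6 both GFP+ arrays were well above both GFP- arrays.

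Another group was close to the GFP- CD25- level in GFP- CD25+ cells. Gpr83, a G protein-coupled receptor, read 10.87, 7.99, 8.01 and 10.35 log2, so that both GFP- populations were alike and Foxp3-fusion cells were 7.34-fold above the CD25+ ones. Its other probe set differed by 3.36 log2. Izumo1r, which encodes folate receptor 4, read 7.84, 5.76, 5.70 and 6.30 log2, a 4.23-fold difference. Nt5e, the CD73 enzyme that makes adenosine, was at least 7.26-fold higher, at 7.35, 4.46, 4.04 and 4.72 log2. Capg, an actin-capping protein gene, was at least 6.48-fold higher, and Klrg1 at least 2.51-fold. Klrg1, an inhibitory receptor of differentiated lymphocytes, read 5.81, 2.76, 2.65 and 2.53 log2 and was above the floor in Foxp3-fusion cells alone. Prdm1, which encodes Blimp-1, showed the same pattern at 5.51, 2.77, 2.82 and 2.71 log2.

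Fgl2, a secreted fibrinogen-like protein of regulatory T cells, led all upward differences other than Foxp3. It read 8.70, 3.43, 4.37 and 3.43 log2 and was at least 18.5-fold higher, with signal above the floor in Foxp3-fusion cells alone. Its other probe set read 5.48, 4.38, 4.30 and 4.41 log2, again above the floor there alone. Socs2, Gbp3 and Il2rb, also of this list, are given with their pathways below. A few members were closer between the populations. Ikzf2, the Helios gene, read 12.77, 12.36, 10.71 and 12.72 log2, 0.41 apart, although a second bright probe set gave 1.67 log2. Ikzf4, the Eos gene, was 0.57 log2 higher and Tnfrsf9 0.85. Nrp1, a receptor for semaphorins, was 2.34-fold higher, and its 3 other probe sets gave 1.49, 2.27 and 3.39 log2.

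**Figure D2:**
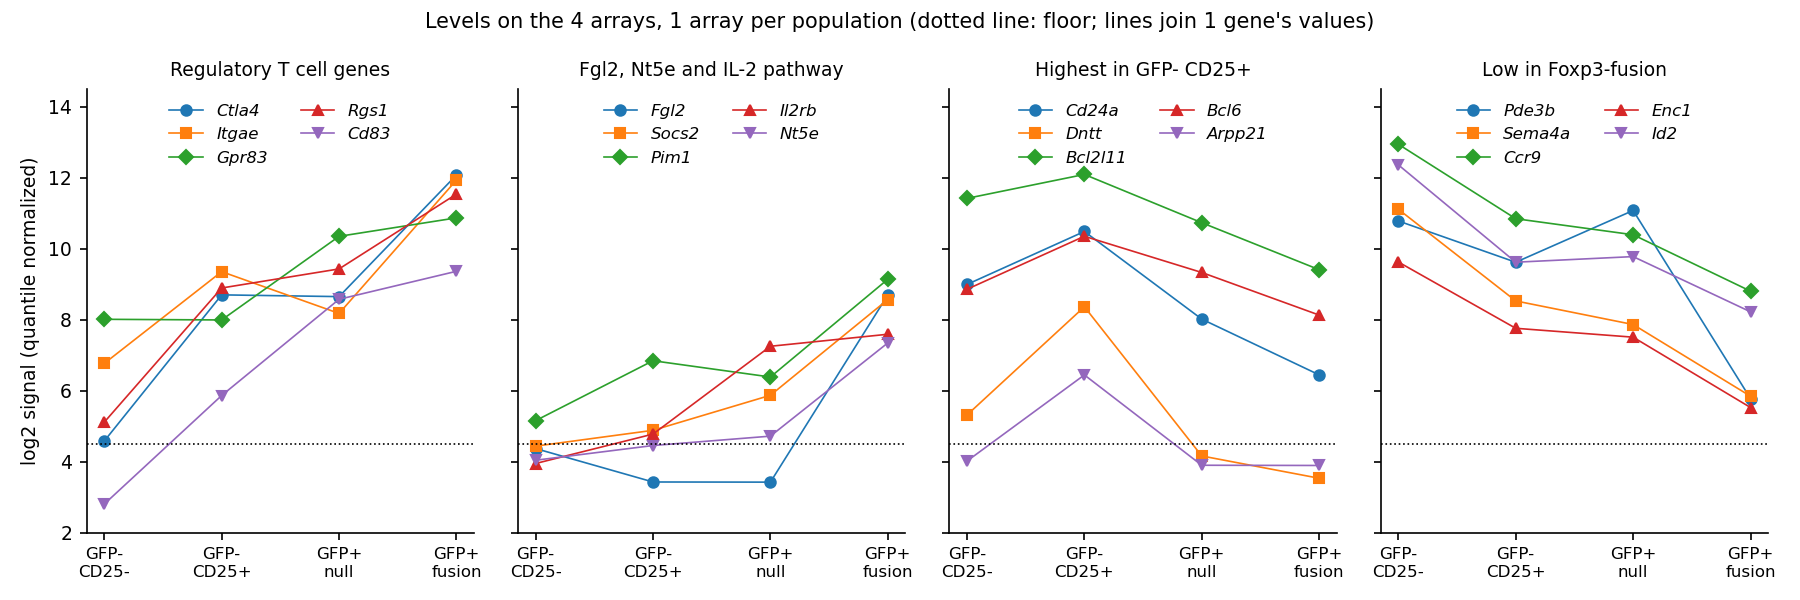
Log2 signal (y axis, quantile normalized) of 20 genes on the 4 arrays (x axis), 1 array per population, with the floor as a dotted line and lines that only join the values of 1 gene. Ctla4, Itgae and Rgs1 are intermediate in GFP- CD25+ cells, Fgl2 is above the floor in Foxp3-fusion cells alone, and Cd24a, Dntt, Bcl2l11, Bcl6 and Arpp21 peak in GFP- CD25+ cells.

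Genes of the IL-2 receptor and STAT5 pathway were mostly higher in Foxp3-fusion cells. Of 12 measured, 7 were 2-fold or more up and 0 lower (background 11.7% and 8.35%), with a median of 1.38 log2 (1.85 as deposited). Socs2, a cytokine-induced inhibitor of cytokine signalling, read 8.57, 4.89, 4.44 and 5.87 log2 and was 12.8-fold higher, and a second bright probe set gave 3.68 log2. Il2rb, the signalling chain shared by the IL-2 and IL-15 receptors, was 7.02-fold higher, at 7.59, 4.78, 3.95 and 7.25 log2, so both GFP+ arrays were above both GFP- arrays. Its second probe set stayed below the floor throughout, and the median over both gave 0.46 log2. Pim1, a survival kinase induced by STAT5, was 4.91-fold higher, and Jak1, which binds the IL-2 receptor beta chain, 4.37-fold. The Jak1 probe sets did not all go one way, at 2.13, 2.98 and -0.42 log2. Il4ra was 3.22-fold higher and Il7r 3.28-fold. Il7r, the IL-7 receptor chain, was lowest in GFP- CD25+ cells, at 9.93, 8.22, 11.23 and 9.41 log2. Cish, another STAT5-induced inhibitor, was 0.71 log2 higher, Socs3 0.90 and Stat5a 0.59, while the survival gene Bcl2 differed by -0.35. Jak3, Socs1, Il15ra and Il21r were under the floor in both populations.

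Promoter sequence is shown for Fgl2, the gene with the largest upward difference after Foxp3, for Ccr6, and for Dntt, which was far lower in Foxp3-fusion cells and is described below. Each is the 250 bases before a RefSeq start on the plus strand of GRCm38.p6, with matches to the STAT motif TTCNNNGAA, which reads the same on both strands, in capitals. Fgl2 lies at chr5:21372423-21372672, the Ccr6 start shown at chr17:8235793-8236042 (1 of 2 in the table) and Dntt at chr19:41029025-41029274.
Fgl2: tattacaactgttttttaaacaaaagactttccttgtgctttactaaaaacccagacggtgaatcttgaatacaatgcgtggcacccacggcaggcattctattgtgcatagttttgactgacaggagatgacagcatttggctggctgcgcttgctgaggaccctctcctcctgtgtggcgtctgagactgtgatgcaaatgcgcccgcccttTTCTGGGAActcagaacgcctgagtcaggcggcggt
Ccr6: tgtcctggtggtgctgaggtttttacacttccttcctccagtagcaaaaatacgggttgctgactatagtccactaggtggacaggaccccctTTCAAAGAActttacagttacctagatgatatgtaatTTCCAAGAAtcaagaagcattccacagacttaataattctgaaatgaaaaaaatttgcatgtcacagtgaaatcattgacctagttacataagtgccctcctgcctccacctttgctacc
Dntt: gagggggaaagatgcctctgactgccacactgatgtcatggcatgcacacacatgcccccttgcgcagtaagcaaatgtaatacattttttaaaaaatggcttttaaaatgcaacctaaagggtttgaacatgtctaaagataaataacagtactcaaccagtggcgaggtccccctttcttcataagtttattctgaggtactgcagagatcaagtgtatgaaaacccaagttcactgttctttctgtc
Fgl2 had 1 match, Ccr6 had 2 and Dntt had none in this window. These genes were picked as examples, and most genes of either direction held no match. Over genes with a promoter in the table, 63 of 725 2-fold or more up (8.69%) held the motif, against 33 of 511 2-fold or more down (6.46%) and 452 of 6248 measured (7.23%). Among all 27025 genes with a listed promoter the share was 8.13%, and of all 32851 promoters of this length 7.02%. The forkhead motif TGTTTAC, searched on both strands, was held by 3.17% of the higher, 2.15% of the lower and 2.61% of the measured genes, by 3.54% of all genes with a listed promoter and by 3.17% of all promoters. A match describes these letters and is not a measured binding site.

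Some members of the TNF receptor family costimulate T cells. In this family 4 of 9 measured genes were 2-fold or more up and 0 lower (background 11.7% and 8.35%). Their median was 0.95 log2 (1.45 as deposited). Tnfrsf13b, the receptor TACI, read 7.12, 4.67, 4.66 and 4.63 log2, a 5.43-fold difference, and was near the floor on the other 3 arrays. Tnfrsf4, which encodes OX40, was 3.52-fold higher, Tnfrsf18, which encodes GITR, 2.75-fold, and Tnfrsf1b 2.53-fold. Cd27 was 0.02 log2 apart. The NF-kappaB subunits and regulators that act below these receptors had 1 of 15 genes 2-fold or more up, Nfkbiz at 2.71-fold, and 0 lower. Their median was -0.0047 log2, or 0.34 on the deposited scale, and lay 0.10 above the median of all genes on both scales. Among co-receptors, 4 of 15 were 2-fold or more up and 0 lower, with a median of 0.77 (1.26 as deposited). Cd2, an adhesion and costimulatory receptor, was 5.57-fold higher and Icos 2.43-fold, while Btla was 0.00 log2 apart and Pdcd1, which encodes PD-1, was 0.98 higher. Cd48, the ligand of CD2 in mice, was among the largest upward differences at 13.7-fold, and read 9.17, 5.39, 5.97 and 6.69 log2.

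Integrin chains differed in both directions. Of 11 measured, 6 were 2-fold or more up and 2 lower (background 11.7% and 8.35%), with a median of 1.13 log2 (1.65 as deposited). Itgb1, the beta chain of the fibronectin and laminin receptors, read 7.73, 4.37, 4.85 and 5.04 log2 and was at least 9.44-fold higher, but the only other probe set above the floor gave at least 0.27 log2. Itga6 was 4.38-fold higher, Itgb7, the partner of CD103, 3.52-fold, and Itgb8, which helps to release active TGF-beta, 3.23-fold. Itga4 was 3.17-fold lower and Itgb5 3.32-fold lower on the probe sets used. The brightest other Itga4 probe set went the other way, at 0.61 log2, and Itgb5 had no value with the median over its probe sets. Among chemokine receptors, 3 of 8 were 2-fold or more up and 1 lower, with a median of 0.32 log2 (0.46 as deposited) that turned to -0.32 without the _s_at, _x_at and _a_at probe sets. Ccr7, which guides mature thymocytes into the medulla, read 10.24, 8.62, 9.22 and 10.33 log2 and was 3.09-fold higher. Cxcr3, a receptor for interferon-induced chemokines, was 3.38-fold higher, at 6.69, 4.93, 5.78 and 4.68 log2. Ccr9, the receptor of developing thymocytes for CCL25, was 4.11-fold lower, and read 8.81, 10.85, 12.94 and 10.39 log2.

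Cytoskeletal and calcium-binding genes of effector and memory T cells included large differences. Of 14 measured S100, annexin, galectin and Capg genes, 4 were 2-fold or more up and 0 lower (background 11.7% and 8.35%). Their median was 0.68 (1.09 as deposited). S100a6 read 8.14, 4.68, 5.11 and 4.73 log2, 3.45 log2 apart, and S100a4 7.78, 5.07, 4.59 and 3.98 log2, a 6.56-fold difference. For both genes, Foxp3-fusion cells were high and the other 3 arrays were at 5.11 log2 or less. Ahnak, a large scaffold protein gene, was 3.45-fold higher. Of genes of thymic egress and late maturation, 6 of 16 were 2-fold or more up and 0 lower, with a median of 0.61 (1.07 as deposited). For 10 of the 16 the GFP- CD25+ level was the lowest of the 4 arrays, against 17.9% of measured genes. Among all genes 2-fold or more up that share was 57.2%. Gimap3, a GTPase gene of lymphocyte survival, was 3.76-fold higher, Gimap7 2.49-fold and Gimap1 2.48-fold, but Gimap9 was 0.61 log2 lower. Gimap6 was 0.54 log2 lower on the probe set used and 0.54 higher with the median over its probe sets. S1pr1, the receptor that leads thymocytes out, was 0.38 log2 lower and its regulator Klf2 0.55 log2 higher.

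Genes of immature thymocytes mostly read lower in Foxp3-fusion cells. Of 18 on the array, 13 were measured, 7 were 2-fold or more down and 0 higher (background 8.35% and 11.7%). The median of the 13 was -1.53 log2, or -1.03 as deposited. Dntt, Rag1 and Arpp21 were under the floor in Foxp3-fusion cells, so they could only count as lower. Rag2, Ptcra, Cd8b1, Ly6d and Aqp11 were under the floor in both populations. The median was -0.58 when each gene took the median of its probe sets and -0.79 without the _s_at, _x_at and _a_at probe sets. For 7 of the 13, GFP- CD25+ cells had the highest level of the 4 arrays, against 22.0% of measured genes. Among all genes 2-fold or more down that share was 67.2%, as the order rests partly on the arrays compared. Cd24a, the heat-stable antigen lost as thymocytes mature, read 6.45, 10.49, 8.99 and 8.02 log2 and was 16.4-fold lower, with a second probe set at -3.50. Dntt, the terminal transferase of receptor gene rearrangement, read 3.54, 8.37, 5.32 and 4.16 log2 and was at least 14.7-fold lower, with a second probe set at least 0.74 log2 lower and the last under the floor. Rag1, of the same process, was above the floor in GFP- CD25+ cells alone, at 3.11, 5.22, 3.56 and 3.41 log2. Arpp21 read 3.90, 6.45, 4.02 and 3.90 log2 and was at least 3.89-fold lower. Sox4 was 2.90-fold lower and Ldhb 3.65-fold, while Id3 was 0.74 log2 higher. The other Ldhb probe sets gave 0.47, -0.25 and -0.54 log2. Tox was 0.42 log2 higher on the probe set used and -0.55 with the median over its probe sets.

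Marcks, also of this list and a membrane-bound substrate of protein kinase C, was 19.0-fold lower in Foxp3-fusion cells, at 6.31, 10.55, 10.66 and 7.32 log2, and its 3 other measured probe sets were lower too. Its relative Marcksl1 was 7.63-fold lower, at 6.43, 9.36, 8.01 and 7.11 log2. Both were low in both GFP+ populations. Pou2af1, a lymphocyte transcriptional coactivator, was at least 7.34-fold lower, at 3.43, 7.36, 5.60 and 4.74 log2. Rapgef3, a cyclic AMP-activated exchange factor, was above the floor only in GFP- CD25+ cells and was at least 9.32-fold lower. Mpzl2, an adhesion protein expressed in the thymus, behaved in the same way at 3.33, 7.20, 3.52 and 4.36 log2. Beside Pou2af1, the B cell marker list had 0 and 1 of 8 genes above the floor, while Ighm was 1.82 log2 higher in Foxp3-fusion cells.

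Regulatory T cells are known to express some T cell genes weakly. Of 11 such genes measured, 5 were 2-fold or more down and 1 was higher (background 8.35% and 11.7%). Their median was -0.96 log2 (-0.63 as deposited). Pde3b, which breaks down cyclic AMP, read 5.78, 9.62, 10.78 and 11.08 log2 and was 14.3-fold lower, so that Foxp3-fusion cells were low and the other 3 arrays lay between 9.62 and 11.08. Sema4a, a semaphorin, read 5.85, 8.53, 11.11 and 7.87 log2, a 6.43-fold difference, with the GFP- CD25+ level below that of GFP- CD25- cells. The other Sema4a probe set differed by only -0.43 log2 between the arrays compared. Enc1 was 4.70-fold lower and Id2, an inhibitor of E proteins, 2.63-fold. Il7r was the gene that was higher. Igfbp4 differed by 0.53 log2 and Satb1 by -0.96.

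T cell receptor response genes split. Of 18 measured, 5 were 2-fold or more up and 2 lower (background 11.7% and 8.35%), with a median of 0.27 log2 (0.78 as deposited). Irf4, a factor induced in proportion to receptor signal, read 7.33, 5.46, 5.54 and 5.51 log2, a 3.66-fold difference, but its second probe set stayed below the floor throughout and the median over both gave 0.30 log2. Myc was 2.11-fold higher, Cd69 2.18-fold and Ier2 3.20-fold, and Nfatc1 2.69-fold, which turned to -0.43 log2 with the median over its probe sets. Nr4a2 was 4.71-fold lower, at 6.02, 8.26, 5.99 and 7.32 log2, highest in GFP- CD25+ cells. Egr1, Egr2 and Egr3 were within 0.59 log2. Bcl2l11, which encodes the death protein Bim, read 9.41, 12.09, 11.42 and 10.73 log2 and was 6.42-fold lower, with another bright probe set at -0.70. Of the 10 measured genes of the BCL-2 family, 0 were 2-fold or more up and 2 lower, the other being Bmf at no less than 2.02-fold. Mcl1 was 0.08 log2 apart. The median of this family was -0.07 log2, and 0.0143 without a floor.

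Signal attenuators showed no common direction, with 5 of 26 2-fold or more up and 5 lower (background 11.7% and 8.35%). Their median was -0.15 log2, or 0.17 as deposited. Relative to the median of all genes it was -0.04 and -0.06 on the 2 scales. Dusp4 was 3.27-fold higher, Dusp2 2.83-fold and Rgs10 3.13-fold. Dusp5, a phosphatase of ERK kinases, was 3.13-fold lower, at 7.46, 9.11, 7.64 and 7.41 log2, highest in GFP- CD25+ cells. Rgs16 was 3.24-fold lower and Itch, a ubiquitin ligase, 3.85-fold lower, but with the median over probe sets both turned, to 0.41 and 0.0493. In the cyclic AMP and adenosine list, 5 of 20 were 2-fold or more up and 3 lower, with a median of 0.08 (0.53 as deposited). Pde2a, a phosphodiesterase stimulated by cyclic GMP, read 7.04, 2.52, 4.29 and 2.49 log2 and was at least 5.86-fold higher, opposite to Pde3b. Crem, a cyclic AMP-responsive factor, was at least 6.69-fold higher, Akap13 2.83-fold and Ptger4 2.02-fold. Prkaca was 2.22-fold lower and Pde7a 2.19-fold, the last turning to 0.12 log2 with the median over probe sets.

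T helper transcription factors were 2-fold or more up for 8 of 15 and lower for 1 (background 11.7% and 8.35%). Their median was 1.02 log2 (1.23 as deposited). Stat4, which transmits IL-12 signals, was at least 4.93-fold higher, at 6.79, 3.80, 3.62 and 4.22 log2. Maf was 3.66-fold higher, Batf 3.20-fold and Rora 3.16-fold. Maf read 10.38, 8.50, 8.95 and 8.40 log2 and was high in Foxp3-fusion cells alone. Ahr was 2.17-fold higher, whereas it read 10.16 log2 in Foxp3-null cells, above the 9.56 of Foxp3-fusion cells. Bcl6, a transcriptional repressor found in follicular helper cells and in thymocytes that receive receptor signals, was 4.66-fold lower. It read 8.13, 10.35, 8.86 and 9.33 log2, highest in GFP- CD25+ cells. Gata3 was 0.25 log2 higher. Of secreted mediators, 5 of 21 on the array were measured, of which 3 were 2-fold or more up and 0 lower, with a median of 1.02 (1.49 as deposited). They were Fgl2, Penk and Ltb, while Il2, Il4, Ifng, Tnf and Tgfb1 were under the floor in both populations.

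Interferon-stimulated genes included 7 of 17 2-fold or more up and 0 down (background 11.7% and 8.35%), with a median of 0.73 (1.25 as deposited). Gbp3, an interferon-induced GTPase, read 10.68, 7.71, 6.96 and 8.02 log2 and was 7.83-fold higher, and Irgm1 was 3.23-fold higher. Among the largest upward differences over all genes stood H2-M3, a nonclassical class I molecule, at no less than 10.8-fold and 7.92, 3.95, 5.67 and 5.96 log2. Psmb9, an interferon-induced proteasome subunit, was 3.32 log2 higher, at 9.07, 5.75, 7.20 and 7.50 log2. Of the listed ribosomal protein genes, 7 of 15 were 2-fold or more up and 0 lower, with a median of 0.91 (1.13 as deposited). Over all 44 measured genes with a ribosomal protein symbol, counted after seeing the data, 13 were up and 1 was down, with a median of 0.40 (0.74 as deposited). Rplp0 was 4.98-fold higher and Rps19 2.55-fold. Both GFP+ arrays were above both GFP- arrays for 12 of the 15 and for 26 of the 44, against 20.7% of measured genes. Among all genes 2-fold or more up that share was 59.1%. The Gapdh gap between 3' and 5' probe sets was also smaller on both GFP+ arrays, 4.60 and 4.93 log2 against 6.51 and 6.56. Its part in the ribosomal difference was not tested.

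**Figure D3:**
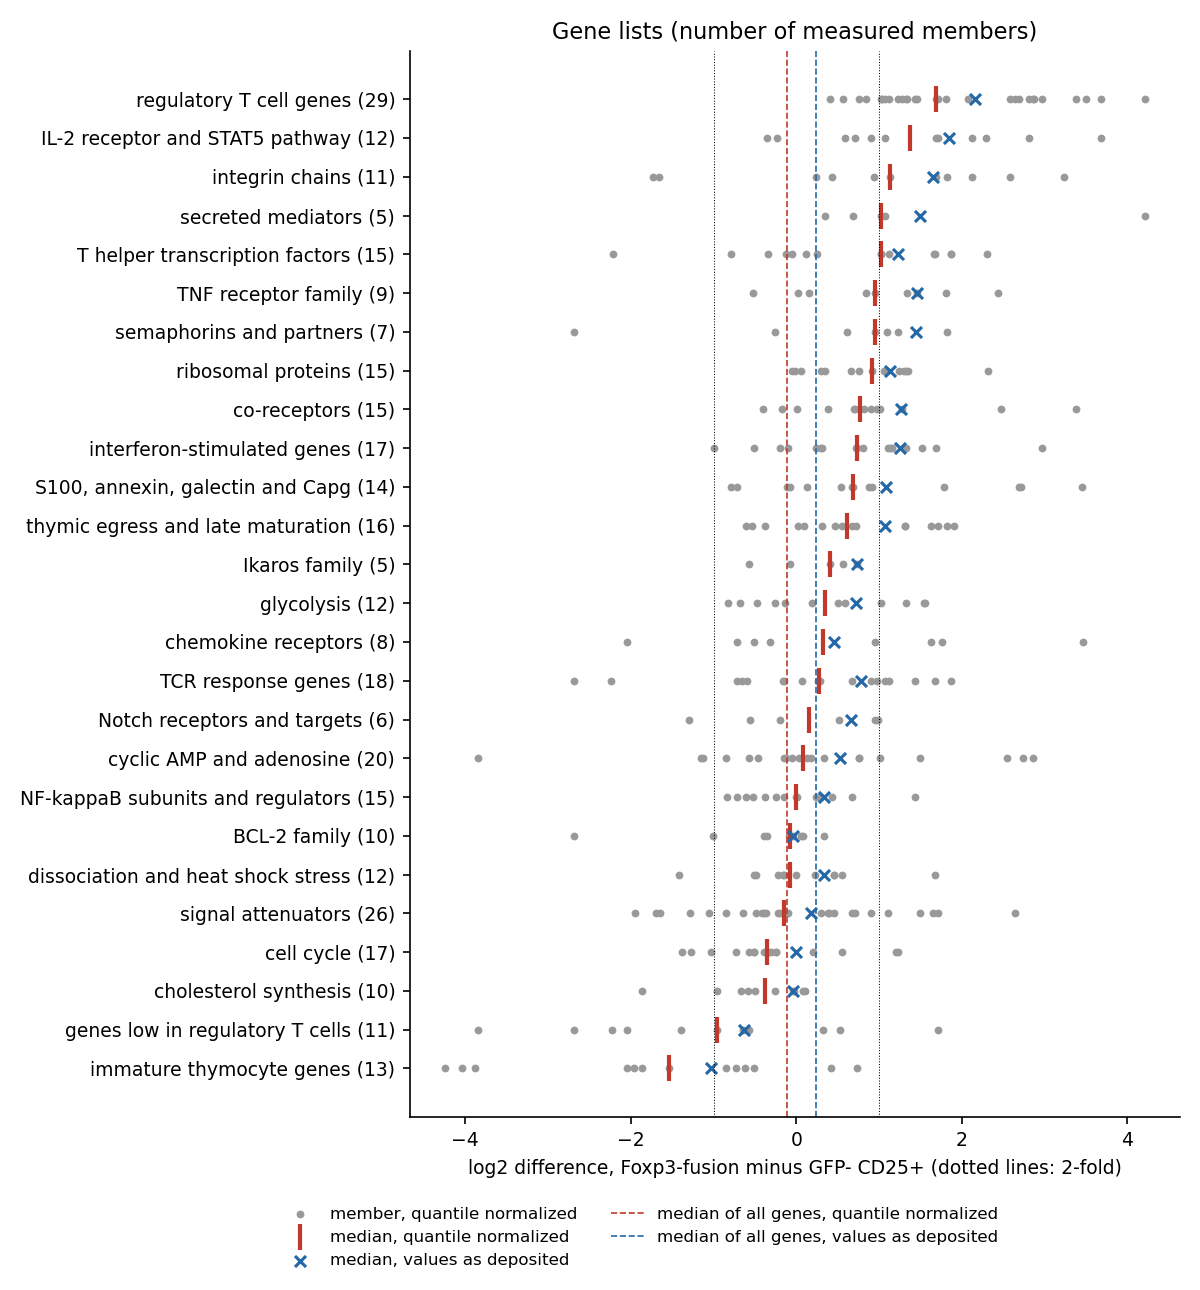
Log2 difference, Foxp3-fusion minus GFP- CD25+ (x axis), of the measured members of 26 gene lists (rows, with the number of members), with the list median on the quantile normalized scale and as deposited. Regulatory T cell genes have the highest median, 1.69, and immature thymocyte genes the lowest, -1.53, and the deposited scale moves most lists to the right with all genes.

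The remaining lists are given by their counts, against a background of 11.7% up and 8.35% down. Cell cycle genes were 2-fold or more up for 2 of 17, near the background share (Pcna at 2.31-fold, Mcm3 at 2.34-fold), and lower for 3. Their median was -0.35 log2, or 0.00 as deposited, and -0.25 and -0.24 relative to the median of all genes. Of the 3 lower genes, Rrm2 turned to 0.40 log2 with the median over probe sets and Mcm2 to 1.10 without the _s_at, _x_at and _a_at probe sets. Glycolysis genes had 4 of 12 higher and 0 lower, with a median of 0.35, among them Slc2a3, a glucose transporter gene, at 2.91-fold. Cholesterol synthesis genes had 0 of 10 higher and 1 lower, with a median of -0.38, the one being Msmo1 at 3.63-fold. Among semaphorins and their partners 3 of 7 were higher and 1 lower, with a median of 0.95. Notch receptors and targets had 0 of 6 higher and 1 lower, Dtx1 at 2.45-fold, with a median of 0.15 that turned to -0.0444 with the median over probe sets. In the Ikaros family 0 of 5 were 2-fold apart, with a median of 0.41. Dissociation and heat shock genes had 1 of 12 higher and 1 lower, Ier2 and Jund. Their median was -0.07, or 0.34 as deposited, and 0.03 and 0.10 relative to the median of all genes.

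The 15 largest upward differences also held genes outside these lists. Ncoa4, a receptor for ferritin breakdown, was 14.9-fold higher, at 8.50, 4.60, 7.10 and 5.06 log2, so that it was high in Foxp3-fusion and GFP- CD25- cells and low in the others. Ostm1, a lysosomal protein gene, was 12.3-fold higher, Tmbim6, an inhibitor of death signals from the endoplasmic reticulum, by 3.59 log2, and Ccndbp1 by at least 10.8-fold. Tmbim6 read 8.41, 4.82, 7.89 and 8.22 log2, low in GFP- CD25+ cells alone. P4ha1, a collagen prolyl hydroxylase gene, was at least 10.3-fold higher. Eif3l, a subunit of a translation initiation factor, was 10.3-fold higher on the probe set used, but -0.18 log2 with the median over its probe sets. Of these 15 genes, 10 had 1 probe set, and of the 3 with another measured one, 2 were higher on it as well and 1 was so by 2-fold or more.

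Downward, Psg28, of the pregnancy-specific glycoproteins, was 20.0-fold lower, at 6.16, 10.49, 9.92 and 7.30 log2. These values rest on its only probe set, so no other probe set could check them. Ccdc22, a trafficking protein gene, was 11.7-fold lower on the probe set used, at 5.70, 9.25, 8.28 and 7.23 log2. With the median over its probe sets it was 1.32 log2 lower. Ccdc22 is the neighbour of Foxp3 on chromosome X, and their annotated spans overlap by 1435 bases in GRCm38.p6. Ehd2 was 6.80-fold lower and Sdad1 6.57-fold. Luc7l, a splicing factor gene, was 6.63-fold lower on the probe set used, but 0.50 log2 higher with the median over its probe sets and 0.59 without the _s_at, _x_at and _a_at probe sets. Of the 15 largest downward differences, 9 had another measured probe set, on which 8 were lower throughout, and 3 had another one lower by 2-fold or more.

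Over all genes 2-fold apart, a second probe set often did not show the difference. Of 242 genes higher in Foxp3-fusion cells whose brightest other probe set was above the floor on both arrays, 58.7% were higher on it and 28.5% 2-fold or more so, while 8 were 2-fold opposite. Of 265 lower genes with such a probe set, 69.1% were lower on it and 18.5% 2-fold or more so, with 19 opposite. Among 2001 genes under 2-fold apart, 45.8% were above 0 on the other probe set, 13.5% were higher on it by 2-fold or more, and 143 were lower by as much. With the median over probe sets, further genes named above no longer reached 2-fold. Those higher were Ncoa4 (0.99), Slc2a3 (0.97), Ptger4 (0.86), Tnfrsf1b (0.69), Rora (0.69) and Ahr (0.17). Those lower were Dntt (-0.74), Jund (-0.71), Itga4 (-0.62), Msmo1 (-0.57), Prkaca (-0.54) and Mcm2 (-0.08).

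**Figure D4:**
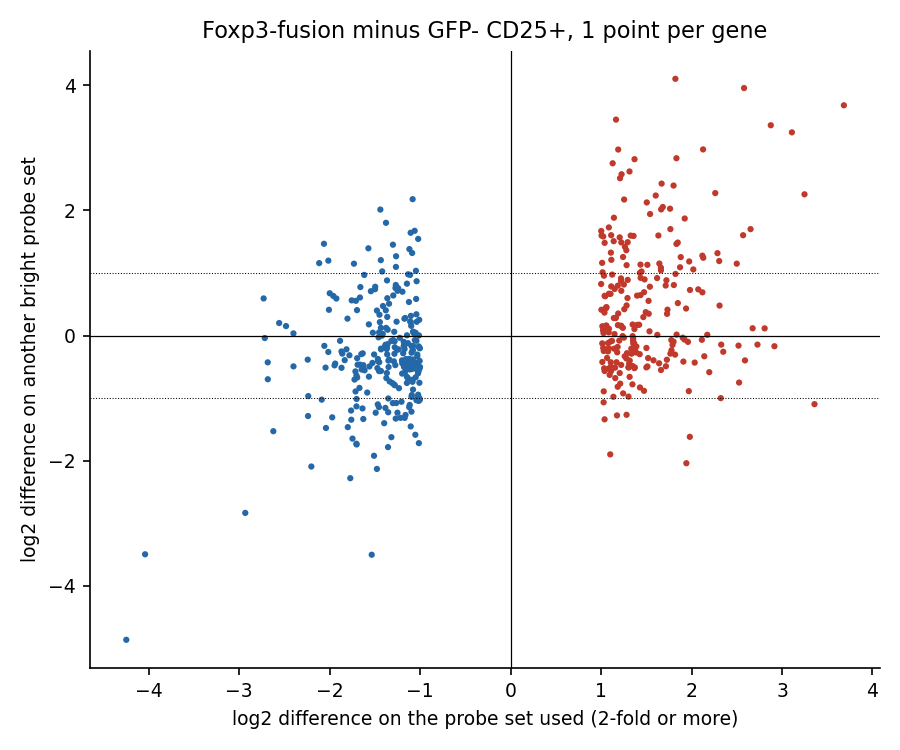
Log2 difference, Foxp3-fusion minus GFP- CD25+, on the probe set used (x axis, 2-fold or more) and on another probe set of the same gene above the floor on both arrays (y axis), 1 point per gene. Of 242 higher genes 142 lie above 0 on the other probe set, and of 265 lower genes 183 lie below 0.

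Foxp3-null and GFP- CD25- cells are the one pair of arrays that shares none with this comparison. Of the 848 genes 2-fold or more up in this comparison that were measured in that pair, 179 (21.1%) were also 2-fold or more up in Foxp3-null over GFP- CD25- cells, a pair in which 10.7% of measured genes were up and 7.7% down, against 11.1% of the 7313 genes measured in both pairs, and 60 (7.08%) were 2-fold or more down there, against 7.95%. Of 623 lower genes, 95 were 2-fold or more down in that pair, or 15.25%, against 7.95%, but 87 (13.96%) were 2-fold or more up, against 11.1%. Their median in that pair was 0.08 log2, and 54.1% were above 0, against 64.7% of all. The lower genes thus did not share a direction in the other pair. Across the 7313 genes the differences correlated with Pearson's r of 0.143 and Spearman's rho of 0.0815, as a description, since genes are not independent replicates. Both pairs set a GFP+ array against a GFP- one, and all arrays were normalized together. The GFP- cells were gated as CD25+ here and as CD25- in the other pair. Within that pair the arrays also differed in genotype, Foxp3(gfpko/wt) against Foxp3(gfp/gfp), and in backcross generations, 2 against 4 to 6. Ctla4 was 3.38 log2 higher in this comparison and 4.07 in the other pair, and Ccr6 3.47 and 4.90. Pde3b was the reverse case, at -3.84 here and 0.30 there, and Cd24a was lower in both, at -4.04 and -0.98.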

How the data were processed

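RNA of sorted thymocytes was amplified in 2 rounds to biotin-labelled cRNA with Affymetrix and Enzo reagents and hybridised to Affymetrix mouse expression arrays, per the labels' protocols. The authors deposited 1 value per probe set and array, taken as log2 from its range; their background correction, summarisation and normalization are not given in the sources used here. Since 90th percentiles of the deposited log2 values ran from 7.54 to 8.16, more than 0.25 apart, the 4 arrays were quantile normalized together. Groups came from the sample titles, with 1 array each. Of 45101 probe sets, 64 controls were left out, 932 listed several genes and 9160 none. The RefSeq table of GRCm38.p6 held 34741 of the 34945 with 1 symbol.

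A gene took its probe set with the highest mean over 4 arrays. The floor was the highest array's 90th percentile over 70 probe sets of silent tissue genes (4.49), and lower values were set to it. A gene counted as measured when above the floor on 1 of the 2 arrays, and as called at 2-fold. No test was possible with 1 array a side. The text names the sort genes, the 15 largest differences each way, skipping transcripts without a gene name and receptor gene segments (1 in all), and members of the lists. The comparison and lists were chosen with earlier results of these data known. Lists are 26 of T cell genes and pathways, besides marker, silent and sort genes, and share members. Alternatives were the deposited scale, centring, the floor, the probe set rule and the threshold. Scripts were tested on simulated data. Python 3.11.15, numpy 2.4.6 and pandas 2.3.3 were used.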

Additional observations from a re-analysis of the deposited data

Results flagged for a closer look

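Probe sets outside the comparison, because they list no gene or several, also carried differences. Of 2804 such probe sets above the floor on at least 1 of the 2 arrays, 208 (7.42%) read 2-fold or more above their GFP- CD25+ level in Foxp3-fusion cells and 346 (12.3%) 2-fold or more below it. Probe sets with 1 gene split the other way, with 12.9% higher and 8.04% lower of 12333.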

How the results depend on the processing

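Every comparison rests on 1 array per side, so leaving out a sample was not possible. No paired analysis was possible because each group has 1 sample. Against 892 genes higher and 637 lower, deposited values gave 1670 and 244. The median over probe sets gave 221 lower, and leaving out the _s_at, _x_at and _a_at probe sets gave 388 lower. A threshold of 3-fold gave 353 higher and 157 lower, and 1.5-fold gave 1637 and 1575. The higher counts under the probe set alternatives, and both counts under centring, normalization of the 2 arrays alone and the other floors, stayed within 1.5 times. Leaving the sort genes out changed no pathway list, since none of the 26 holds one. The ribosomal median of 0.91 was 0.40 over all measured genes with such a symbol, an alternative chosen after seeing the data. The median of regulatory T cell genes stayed between 1.34 and 2.16 log2. That of immature thymocyte genes was -0.58 with the median over probe sets and -0.79 without the named suffixes. Of 143 named genes 2-fold apart, 130 were still so as deposited, 136 with centring and 134 with a floor 1 log2 unit higher, and all 143 with the 2 arrays alone, without a floor or with a floor at each array's median. With the median over probe sets 89 were, 31 were not and 23 had no value, and without the named suffixes 95 were, 11 were not and 37 had no value. The direction turned with the median over probe sets for Eif3l (-0.18), Luc7l (0.50), Nfatc1 (-0.43), Rgs16 (0.41), Itch (0.0493), Pde7a (0.12), Rrm2 (0.40) and Zap70 (0.82), and without the named suffixes for Luc7l (0.59), Mcm2 (1.10), Rrm2 (0.40) and Zap70 (0.82). The cause was not tested. The share of higher among called genes was 75.4% with the median over probe sets and 69.1% without the named suffixes, against 58.3%. Signals near the floor limit which low genes could be read.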
